A study of Mus musculus with 6 samples.

Results

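Molecular chaperones fold new proteins, hold unfolded ones in solution and take apart aggregates, and many of them were first found as heat shock proteins. RNA levels of 47 genes of this kind were compared between wild type (WT) ASCs and *Bdh2*-knockout ASCs. They were found by gene symbol among the 54715 genes of the deposited table, and all 47 were among the 16758 genes that passed the filter on low counts. The 47 genes were selected on the fold changes between knockout and WT in these same samples, whose results were known when they were chosen. Values of this comparison are therefore a description of the 47 genes and no independent evidence of their direction. Although most of the 47 proteins work in the cytosol and nucleus, *Hspa9*, *Hspd1*, *Hspe1*, *Dnaja3* and *Trap1* encode mitochondrial chaperones and are kept apart below.

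Bulk RNA was sequenced from ASCs of WT genotype and of genotype *Bdh2*-/-, with 3 replicates each. ASCs are mouse embryonic stem cells in an advanced pluripotent state, and those of both genotypes carried a GFP reporter driven by Oct4 regulatory sequences and were grown without feeder cells on fibronectin, in N2B27 medium with leukemia inhibitory factor, CHIR99021, BMP4 and activin A. The knockout was made with Cas9 and a pair of guide RNAs next to the start codon, and the study describes lines grown from single cells, of which 1 ASC clone with a deletion on both alleles was taken further. The labels do not say whether the 3 knockout replicates are all of that clone. If they are, a difference between the groups can belong to the clone as well as to the genotype, and the 2 cannot be told apart. The sources used here do not say that the replicates were separate cultures, so the p-values measure the spread between these samples, which may be technical.

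Each library held between 18927748 and 28333541 counts on genes, and 3 counts correspond to 0.106 to 0.158 CPM (counts relative to the total of a library), which covers counting error only. *Bdh2* itself stood at 10.5, 9.56 and 8.27 normalized CPM in replicates 1, 2 and 3 of WT and at 5.95, 4.99 and 5.38 in those of knockout ASCs, a log2 fold change of -0.79 ± 0.12 (SE) with an adjusted p of 2.5e-04 by edgeR's quasi-likelihood test. The summed level of 8 pluripotency markers was 6655 to 6743 normalized CPM in WT and 6512 to 6729 in knockout ASCs, with 3 of the 8 called higher (*Pou5f1* at 0.17 ± 0.05, *Esrrb* at 0.22 ± 0.05 and *Klf4* at 0.18 ± 0.06, log2 fold change ± SE), 1 called lower (*Dppa5a* at -0.19 ± 0.05) and 4 not called. The 6 primitive endoderm markers all rose, from a summed 13.6 to 14.4 to a summed 62.0 to 71.0 normalized CPM. Adult hepatocyte transcripts (11 genes, led by *Alb*) summed to 469, 285 and 34.0 normalized CPM in the WT and 25.7, 127 and 14.4 in the knockout replicates. Of the 11 genes, 10 were called lower, where 20.8% of all genes tested were, but the values of the genotypes overlapped for all 11. The source of these transcripts and of their spread between replicates was not tested. Transcripts of 6 fibroblast genes summed to 28.7 to 38.2 in WT and 27.3 to 32.9 in knockout ASCs, with 1 of the 6 called lower. The part of these other markers, or of cells that carry them, in the chaperone values was not tested. WT ASC replicate 1 and knockout ASC replicate 2 were left out together, and nothing beyond that was done. Because the RNA is bulk, a smaller share of cells of a type and less RNA per cell cannot be told apart.

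HSP70 proteins bind and release short hydrophobic stretches of a client in a cycle that J-domain proteins start and nucleotide exchange factors of the HSP110 and BAG families end. HSP90 takes over clients that are nearly folded, with cochaperones that deliver them or drive its ATPase, whereas the ring-shaped CCT chaperonin folds actin and tubulin inside a closed chamber. Heat shock factor 1, encoded by *Hsf1*, raises many of these genes under stress by binding inverted repeats of a short unit, the heat shock elements, and pluripotent stem cells are known for high chaperone levels without any stress.

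Of the 47 genes, 21 were higher in knockout ASCs, 2 were lower and 24 were not called at an adjusted p under 0.05. Over all 16758 genes tested 41.7% were called, 21.0% higher and 20.8% lower. Because the choice of the 47 drew on this contrast, nothing is read from the difference between these shares, and the same holds for the counts within each chaperone family. The median log2 fold change of the 47 was 0.12, against -0.0127 over all genes tested, and single genes ran from -0.93 (*Dnajb4*) to 0.72 (*Hspa1b*). The changes were small in size, with 0 genes past 2-fold and 4 of the 23 called genes past 1.5-fold (*Hspa1b*, *Hsph1*, *Hspb1* and *Dnajb4*). The 3 values of each genotype did not overlap for 27 genes, 23 higher and 4 lower in knockout ASCs, where 26.3% and 26.1% of all genes tested did the same (52.4% in either direction). Together the 47 genes took 2.68, 2.66 and 2.74% of all counts in WT replicates 1, 2 and 3 and 2.94, 2.97 and 2.95% in the knockout replicates. Every knockout library thus held a larger share than every WT library. This share depends most on the genes with most counts. From WT to knockout ASCs, mean normalized CPM went from 6558 to 7681 for *Hsp90ab1* and from 2452 to 3599 for *Hspa8*. The sum of all 47 went from 26425 to 30158, and that of the 9 HSP90 and HSP70 cochaperones from 2849 to 2962.

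With the counts scaled by library totals alone, the median of the 47 was 0.0639 and that over all genes -0.07. On that scale 17 of the 47 were called higher and 5 lower, so that 77.3% of the called members were higher instead of 91.3%, and over all genes that share moved from 50.3% to 38.0%. Without WT replicate 1 and knockout replicate 2, the library with most hepatocyte transcripts of each group, 16 were higher and 2 lower. With these fewer libraries the calls over all genes went from 3518 to 2421 higher and from 3478 to 2250 lower.

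**Figure D1:**
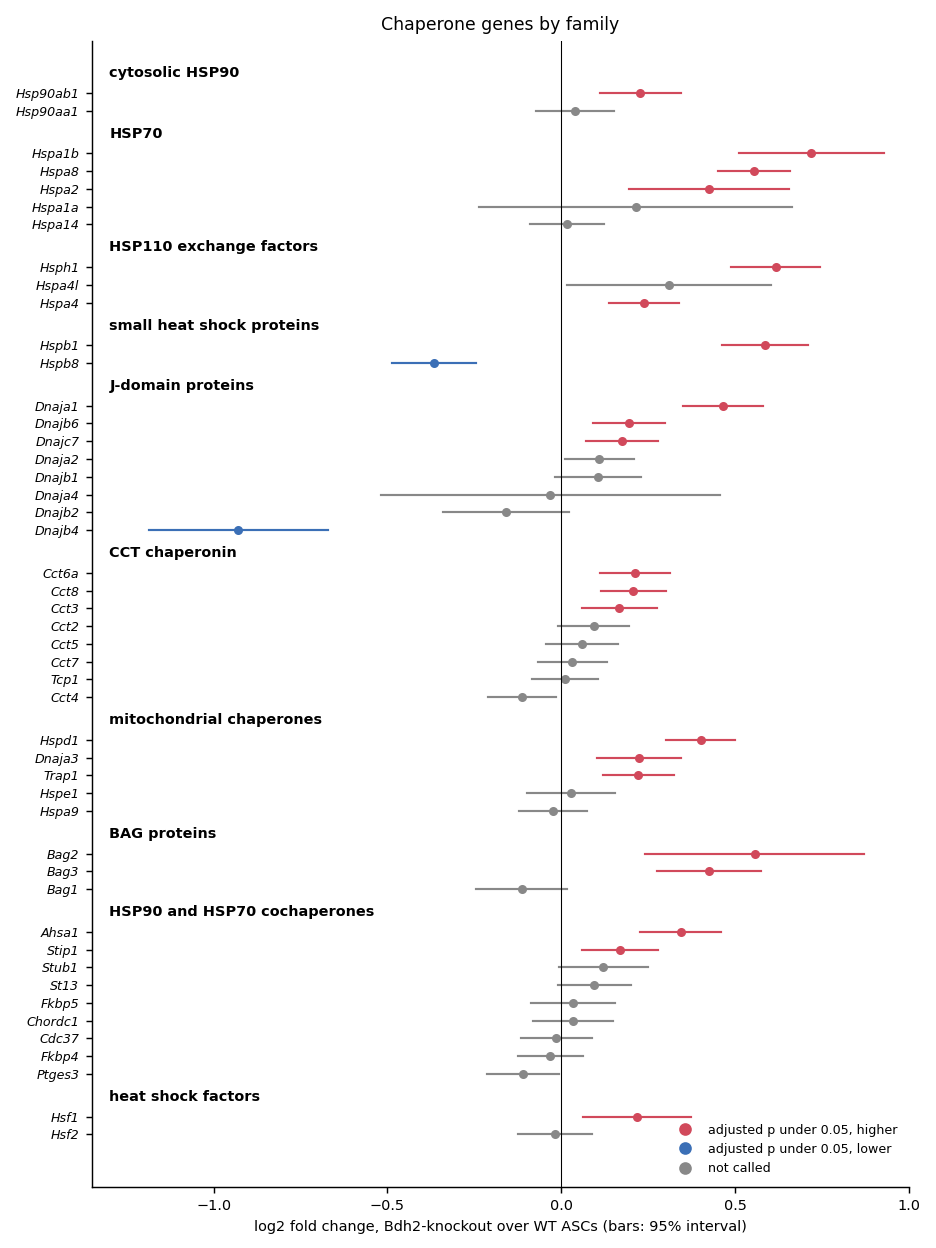
Log2 fold change of the 47 genes, *Bdh2*-knockout over WT ASCs (x axis), by chaperone family, with 95% intervals as bars. Red points are the 21 genes called higher, blue points the 2 called lower (*Hspb8* at -0.37, *Dnajb4* at -0.93) and grey points the 24 not called. *Hspa1b*, *Hsph1* and *Hspb1* lie furthest to the right.

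The constitutive HSP70 carried most of the counts that were gained in its family. *Hspa8*, which encodes the constitutive cytosolic HSP70 (HSC70; GRCm38, chromosome 9, plus strand, 40800984 to 40810087), stood at 2525, 2288 and 2544 normalized CPM in the 3 WT replicates and at 3509, 3704 and 3583 in the 3 knockout replicates. The lowest knockout value lay well above the highest WT value, and *Hspa8* rose by 46.7% (log2 fold change 0.55 ± 0.05 SE, adjusted p = 2.3e-06). Of its 50-base transcript stretches, 51.4% also occur in transcripts of 13 other genes. The gene that shares most of them was counted 0 times in all 6 libraries. How reads with several matches were treated is not stated, so this does not show whether *Hspa8* lost reads.

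The stress-inducible HSP70 genes *Hspa1a* and *Hspa1b* are neighbours on chromosome 17 and encode nearly the same protein. *Hspa1b* measured 6.54, 7.13 and 7.08 normalized CPM in WT and 12.1, 11.1 and 11.0 in knockout ASCs, with no overlap, and rose by 64.7% (log2 fold change 0.72 ± 0.10 SE, adjusted p = 8.2e-05), the largest increase among the 47. *Hspa1a* measured 1.70, 2.18 and 2.73 in WT and 2.29, 2.79 and 2.67 in knockout ASCs, values that overlapped. It was not called, and its interval of -0.24 to 0.66 on the log2 scale reached further from 0 than that of any other uncalled gene. The gene had 33 to 76 counts in a library. The 2 genes share 58.8% of the 50-base stretches of *Hspa1a*, so reads between them are uncertain. Their sum was 8.24, 9.31 and 9.82 normalized CPM in WT and 14.4, 13.9 and 13.7 in knockout ASCs, and every knockout sum exceeded every WT sum. Per length the inducible genes stayed minor, since *Hspa8* had 209 to 252 times the FPKM (counts scaled to gene length and library total) of *Hspa1b* in WT and 189 to 217 times in knockout ASCs.

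Of the remaining HSP70 genes, *Hspa2*, best known for its part in male germ cells, rose from 5.92, 5.85 and 6.17 to 8.02, 8.43 and 7.64 normalized CPM (log2 fold change 0.42 ± 0.11, adjusted p = 0.0063), although its call was lost without WT replicate 1 and knockout replicate 2 together (0.38). *Hspa14*, a ribosome-associated relative, showed 0.02 ± 0.05 with an interval of -0.09 to 0.12 and was not called.

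All 3 genes of the HSP110 family, large HSP70 relatives that exchange the nucleotide of HSP70 and hold unfolded clients, were measured, and 2 were called, where 41.7% of all genes were. *Hsph1* (HSP105, minus strand of chromosome 5 from 149614287 to 149636376) measured 181, 162 and 189 normalized CPM in WT and 264, 281 and 271 in knockout ASCs. The genotypes were far apart relative to their spread, with an increase of 53.4% (log2 fold change 0.62 ± 0.06, adjusted p = 5.4e-06). *Hspa4* (APG-2), with the highest FPKM of the 3, rose from 725, 691 and 758 to 842, 863 and 861 normalized CPM (0.24 ± 0.05, adjusted p = 0.0012). *Hspa4l* (APG-1), at 6.65, 7.78 and 5.46 against 8.49, 7.26 and 8.80, overlapped between genotypes and was not called (0.31 ± 0.14, adjusted p = 0.083), but it was called without WT replicate 2 (0.44) and without the filter on low counts.

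**Figure D2:**
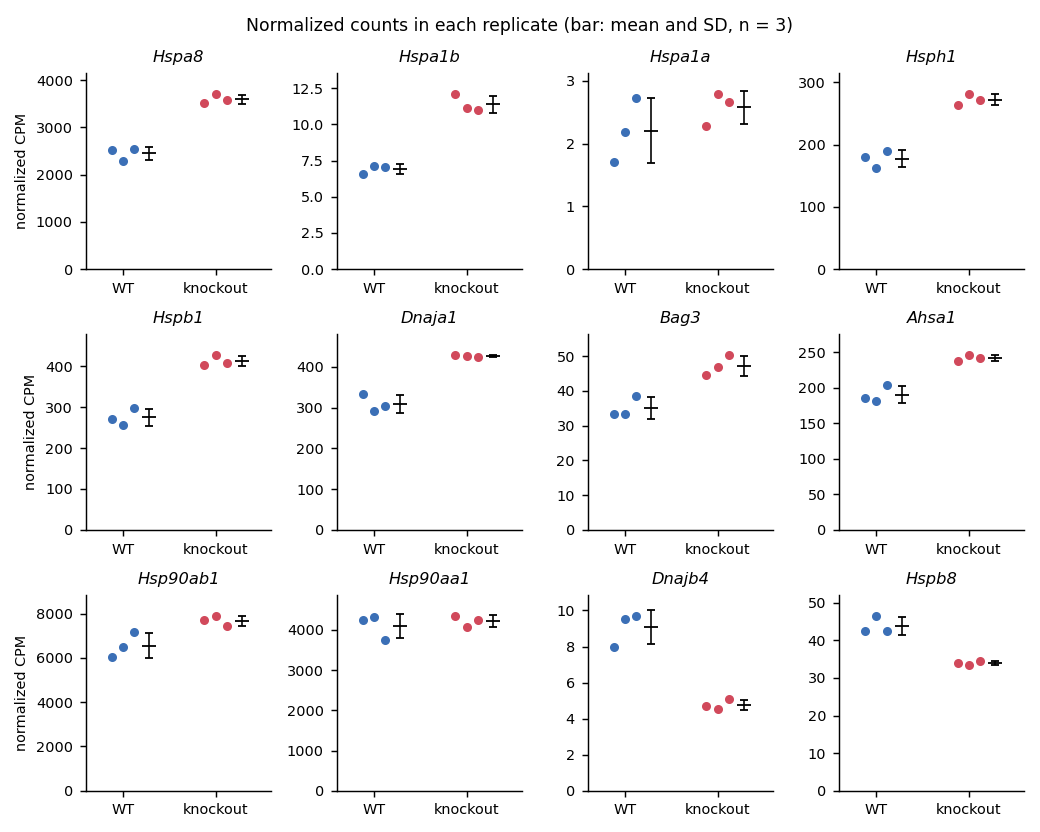
Normalized CPM (y axis, from 0) of 12 chaperone genes in the 3 WT (blue) and 3 *Bdh2*-knockout (red) ASC replicates, with mean and SD (n = 3) beside them. In *Hspa8*, *Hspa1b*, *Hsph1*, *Hspb1*, *Dnaja1*, *Bag3*, *Ahsa1* and *Hsp90ab1* all red points lie above all blue points, in *Dnajb4* and *Hspb8* below them, and in *Hspa1a* and *Hsp90aa1* they overlap.

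J-domain proteins, which deliver clients to HSP70 and start its ATP hydrolysis, had 8 genes here, of which 3 rose, 1 fell and 4 were not called. With 4 of the 8 called, the share was near the 41.7% over all genes. *Dnaja1*, the main farnesylated partner of cytosolic HSP70, measured 332, 291 and 304 normalized CPM in WT and 429, 427 and 423 in knockout ASCs. Its knockout replicates were nearly equal and all above WT (log2 fold change 0.46 ± 0.05, adjusted p = 2.4e-05). Smaller increases were found for *Dnajb6*, which holds back aggregation of polyglutamine proteins (0.19 ± 0.05, adjusted p = 0.0057), and *Dnajc7*, which binds both HSP70 and HSP90 (0.18 ± 0.05, adjusted p = 0.010). The call of *Dnajc7* was lost with library totals (0.12). Of the 50-base stretches of *Dnajb6*, 35.8% occur in 9 other genes.

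*Dnajb4* went the other way. This heat-inducible partner of HSP70 (minus strand of chromosome 3 from 152178511 to 152210302) measured 7.98, 9.51 and 9.70 normalized CPM in WT and 4.68, 4.55 and 5.09 in knockout ASCs. The highest knockout value was below the lowest WT value, and *Dnajb4* decreased by 47.5% (log2 fold change -0.93 ± 0.12, adjusted p = 5.8e-05), the largest change in size among the 47. *Dnajb1* (HSP40), its closest relative here and a gene that heat induces strongly in most cells, measured 73.2, 67.9 and 76.0 in WT and 80.4, 79.1 and 74.2 in knockout ASCs and was not called, with an interval of -0.02 to 0.23. The difference between the fold changes of *Dnajb4* and *Dnajb1* was not tested, but their 95% intervals do not overlap. *Dnaja2*, another partner of cytosolic HSP70 whose genotypes did not overlap (232, 237 and 238 against 259.8, 256 and 247), was not called at 0.11 ± 0.05 (adjusted p = 0.073), but was called without WT replicate 3 (0.12) and by DESeq2. *Dnajb2*, a ubiquitin-binding form known from neurons (-0.16 ± 0.08), and *Dnaja4*, a relative of *Dnaja1* (-0.03 ± 0.23), were not called, the latter at under 2 normalized CPM in every library and with 44.1% of its exon bases also in exons of *Wdr61* on the opposite strand.

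BAG proteins release clients from HSP70 through their BAG domain. *Bag3*, which joins HSP70 to small heat shock proteins and to autophagy, measured 33.3, 33.2 and 38.6 normalized CPM in WT and 44.6, 46.8 and 50.3 in knockout ASCs (log2 fold change 0.42 ± 0.07, adjusted p = 3.4e-04). *Bag2*, an inhibitor of the ubiquitin ligase encoded by *Stub1*, was low and rose from 3.81, 3.57 and 3.36 to 5.77, 4.58 and 5.42 (0.56 ± 0.15, adjusted p = 0.0081). Neither gene overlapped between genotypes. *Bag1*, which links HSP70 to the proteasome, showed -0.11 ± 0.06 and was not called, and was called lower with library totals (-0.17).

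The 2 small heat shock proteins, which hold unfolded proteins without ATP, went in opposite directions. *Hspb1* (HSP25, the mouse counterpart of human HSP27; plus strand of chromosome 5 from 135887919 to 135889563) measured 270.4, 257 and 297 normalized CPM in WT and 404, 427 and 408 in knockout ASCs, an increase of 50.1% (log2 fold change 0.59 ± 0.06, adjusted p = 5.9e-06). *Hspb8*, the partner of the BAG3 protein in selective autophagy, measured 42.4, 46.5 and 42.4 in WT and 33.9, 33.3 and 34.6 in knockout ASCs (-0.37 ± 0.06, adjusted p = 2.1e-04). In both genes the genotypes did not overlap. *Bag3* and *Hspb8*, whose products work in 1 complex, thus had log2 fold changes of opposite sign. The pseudogene *Hsp25-ps1* holds 51.6% of the 50-base stretches of *Hspb1* and was counted 5 to 19 times per library. The level of *Hspb1* thus depends on how reads with several matches were treated.

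The 2 cytosolic HSP90 genes had the highest FPKM of all 47 genes in every library. *Hsp90ab1*, the constitutive HSP90β gene, measured 6035, 6478 and 7161 normalized CPM in WT and 7691, 7894 and 7457 in knockout ASCs (log2 fold change 0.23 ± 0.05, adjusted p = 0.0046). All knockout values exceeded all WT values, but WT replicate 3 came close to the knockout range, and the call was lost without WT replicate 1 and knockout replicate 2 together (0.15). *Hsp90aa1*, the inducible HSP90α gene, measured 4245, 4309 and 3759 in WT and 4346, 4062 and 4251 in knockout ASCs and was not called, with an interval of -0.07 to 0.15. Per length, *Hsp90ab1* had 1.86, 1.97 and 2.50 times the FPKM of *Hsp90aa1* in the WT and 2.32, 2.55 and 2.30 times in the knockout replicates. These ratios overlapped. Of the 50-base stretches of *Hsp90aa1*, 58.5% occur in 4 other genes, so its level depends on how such reads were treated.

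Among 9 cochaperones, 2 were higher, 0 lower and 7 not called, and the 22.2% called higher was near the 21.0% over all genes, of which 20.8% were lower. *Ahsa1*, the strongest known activator of the HSP90 ATPase, rose from 185, 181 and 204 to 237, 246 and 241 normalized CPM without overlap (log2 fold change 0.34 ± 0.05, adjusted p = 2.7e-04). *Stip1* (HOP), which hands clients from HSP70 to HSP90, showed 0.17 ± 0.05 (adjusted p = 0.017) and was no longer called without WT replicate 2 (0.13), without WT replicate 1 and knockout replicate 2 together (0.15) or with library totals (0.11). The 7 others were *Fkbp4* and *Fkbp5*, immunophilins of steroid receptor complexes, *Cdc37*, which brings kinases to HSP90, *Ptges3* (p23), which holds HSP90 closed, *St13* (HIP), which steadies HSP70 with its client, *Stub1* (CHIP), the ubiquitin ligase of the system, and *Chordc1*, an HSP90 binding protein. Their log2 fold changes lay between -0.11 (*Ptges3*) and 0.12 (*Stub1*). *St13* and *Stub1* were called higher without WT replicate 3 (0.13 and 0.18), and *Ptges3* was called lower with library totals (-0.17) and with a mean count of at least 50. Exons of *Stub1* lie by 42.3% in exons of other genes, chiefly *Jmjd8* on the opposite strand.

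The CCT chaperonin is built of 8 different subunits in each of its rings, and all 8 genes were measured. *Cct6a*, *Cct8* and *Cct3* rose, with log2 fold changes of 0.21 ± 0.05, 0.21 ± 0.04 and 0.17 ± 0.05 and adjusted p-values of 0.0029, 0.0020 and 0.016. *Cct8* measured 904, 854 and 865 normalized CPM in WT and 1024, 1003 and 1001 in knockout ASCs, and *Cct6a* measured 616, 561 and 594 and 684, 678 and 690.0. *Cct2*, *Cct5*, *Cct7* and *Tcp1* (CCT1) were not called and lay between 0.01 and 0.09. *Cct4*, the subunit that pointed the other way, measured 579, 590.5 and 591 in WT and 554, 522 and 552 in knockout ASCs. Its values did not overlap, but it was not called (-0.11 ± 0.05, adjusted p = 0.060). The call of *Cct3* was lost without WT replicate 2 (0.12) and with library totals (0.11), *Cct2* was called higher without WT replicate 3 (0.14), and *Cct4* was called lower with library totals (-0.17) and with a mean count of at least 50. Per length the 8 subunit genes spanned 96.3 FPKM (*Cct7*) to 289 FPKM (*Cct8*) in WT and 94.5 to 320.0 FPKM in knockout ASCs. These spans depend on the listed gene lengths, 6778 bases for *Cct7* and 3088 for *Cct8*. Mean normalized CPM, which leaves out length, ran from 582 (*Tcp1*) to 874 (*Cct8*) in WT and from 543 (*Cct4*) to 1009 (*Cct8*) in knockout ASCs.

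Prefoldin, a jellyfish-shaped complex of 6 different subunits, hands unfolded actin and tubulin to CCT, and phosducin-like proteins assist the ring. Of 9 such genes, which were not among the 47, 1 rose, 6 fell and 2 were not called, with a median log2 fold change of -0.16 against 0.08 for the 8 CCT genes. The difference between these medians was not tested. Over all genes 21.0% were called higher and 20.8% lower, and among the 9 these shares were 11.1% and 66.7%. Because these genes too were chosen with earlier results of these data known, nothing is read from the medians or the shares. *Pfdn5* measured 62.5, 64.5 and 61.9 normalized CPM in WT and 90.7, 81.4 and 85.1 in knockout ASCs (log2 fold change 0.45 ± 0.05, adjusted p = 4.2e-05). *Pfdn4* measured 37.5, 40.4 and 36.2 in WT and 31.0, 28.2 and 28.2 in knockout ASCs (-0.38 ± 0.06, adjusted p = 3.8e-04). The other genes called lower, named after their values were seen, were *Pdcl3* (-0.29), *Vbp1* (-0.19), *Pfdn1* (-0.18), *Pdcl* (-0.16) and *Pfdn2* (-0.16). The 6 prefoldin subunit genes thus included 1 that rose, 4 that fell and *Pfdn6*, which was not called (0.09 ± 0.05).

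**Figure D3:**
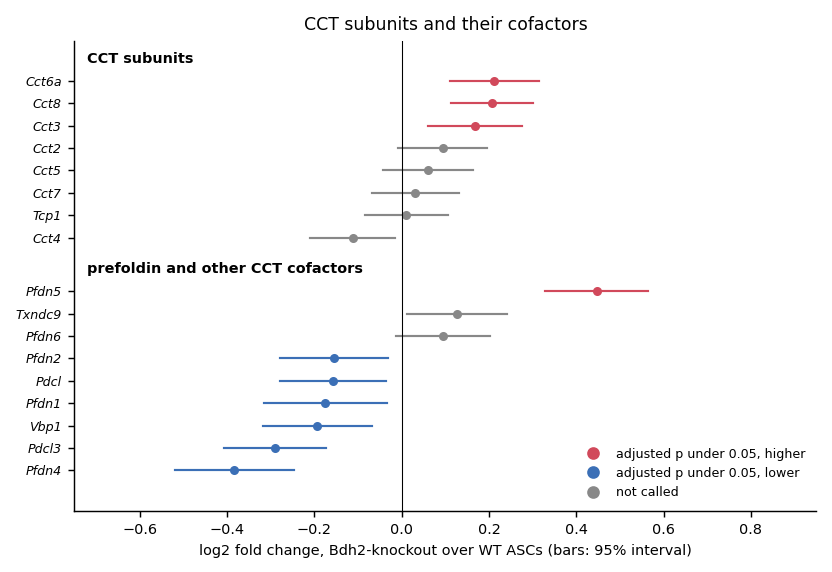
Log2 fold change, *Bdh2*-knockout over WT ASCs (x axis), of the 8 CCT subunit genes and 9 genes of prefoldin and other CCT cofactors, with 95% intervals as bars. Red is called higher, blue called lower and grey not called. Of the CCT genes 3 are red and 0 blue, and of the cofactors 1 is red (*Pfdn5* at 0.45) and 6 are blue.

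In mitochondria, HSP60 (*Hspd1*) forms a barrel that its lid HSP10 (*Hspe1*) closes. *Hspd1* measured 803, 803 and 851 normalized CPM in WT and 1083, 1119 and 1043 in knockout ASCs, without overlap (log2 fold change 0.40 ± 0.05, adjusted p = 2.5e-05). *Hspe1* measured 407, 425 and 381 in WT and 443, 405 and 388 in knockout ASCs, values that overlapped, and was not called, with an interval of -0.10 to 0.15 that lies wholly below the 0.30 to 0.50 of *Hspd1*. Per length, *Hspd1* had 1.10, 1.05 and 1.25 times the FPKM of *Hspe1* in WT and 1.36, 1.54 and 1.50 times in knockout ASCs, so every knockout ratio was above every WT ratio. The difference between the 2 fold changes was not tested on its own.

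The pair stands head to head on chromosome 1, *Hspd1* on the minus strand from 55077835 to 55088243 and *Hspe1* on the plus strand from 55088132 to 55091307. Their annotated ends overlap, with 4.24% of the exon bases of *Hspd1* and 7.60% of those of *Hspe1* in exons of the other, and whether counting used strand is not stated in the sources used here. In addition, 44.8% of the 50-base stretches of *Hspd1* occur in 9 other genes, among them the pseudogene *Hspd1-ps3*.

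The 5 promoters with a heat shock element are shown because they hold the known binding signal of heat shock factors and include the shared promoter of this pair. A promoter is a window from 250 bases before to 50 bases after a start in RefSeq (GRCm38.p6), and such windows were found for 40 of the 47 genes. An element was taken as 3 units in alternating orientation with 2 bases between them, GAANNTTCNNGAA or TTCNNGAANNTTC, where N is any base. The pattern with 2 units is GAANNTTC or TTCNNGAA and lies inside each element, and with both forms of each pattern both strands are covered. Capitals mark the elements, and each promoter is written 5′ to 3′ on the strand of its gene, from chr9:18292017-18292316 (plus) for *Chordc1*, chr1:55087883-55088182 (minus) for *Hspd1*, chr1:55087898-55088197 (plus) for *Hspe1*, chr5:149636266-149636565 (minus) for *Hsph1* and chr5:29735648-29735947 (plus) for *Dnajb6*.
Chordc1: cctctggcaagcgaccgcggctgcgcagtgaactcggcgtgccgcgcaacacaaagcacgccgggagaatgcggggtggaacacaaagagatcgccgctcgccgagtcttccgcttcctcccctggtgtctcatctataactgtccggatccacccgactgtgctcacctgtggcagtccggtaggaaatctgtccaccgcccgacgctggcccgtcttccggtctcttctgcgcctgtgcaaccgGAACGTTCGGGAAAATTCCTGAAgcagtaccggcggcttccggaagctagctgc
Hspd1: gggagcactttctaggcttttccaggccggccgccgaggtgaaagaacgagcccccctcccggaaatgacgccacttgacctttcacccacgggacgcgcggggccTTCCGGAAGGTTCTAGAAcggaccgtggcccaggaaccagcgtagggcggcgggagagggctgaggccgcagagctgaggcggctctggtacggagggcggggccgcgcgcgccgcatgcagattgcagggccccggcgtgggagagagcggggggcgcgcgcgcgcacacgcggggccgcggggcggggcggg
Hspe1: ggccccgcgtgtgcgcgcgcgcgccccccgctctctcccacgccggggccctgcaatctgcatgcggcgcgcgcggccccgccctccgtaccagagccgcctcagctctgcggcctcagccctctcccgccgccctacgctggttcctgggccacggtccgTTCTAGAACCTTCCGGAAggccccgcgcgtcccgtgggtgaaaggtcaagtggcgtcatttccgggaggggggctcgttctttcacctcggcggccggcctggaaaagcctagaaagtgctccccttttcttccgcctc
Hsph1: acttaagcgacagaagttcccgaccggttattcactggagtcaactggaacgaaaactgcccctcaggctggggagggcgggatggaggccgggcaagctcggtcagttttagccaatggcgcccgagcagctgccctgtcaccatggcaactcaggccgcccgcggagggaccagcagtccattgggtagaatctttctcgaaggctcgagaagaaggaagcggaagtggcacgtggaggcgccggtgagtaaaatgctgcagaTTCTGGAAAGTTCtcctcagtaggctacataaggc
Dnajb6: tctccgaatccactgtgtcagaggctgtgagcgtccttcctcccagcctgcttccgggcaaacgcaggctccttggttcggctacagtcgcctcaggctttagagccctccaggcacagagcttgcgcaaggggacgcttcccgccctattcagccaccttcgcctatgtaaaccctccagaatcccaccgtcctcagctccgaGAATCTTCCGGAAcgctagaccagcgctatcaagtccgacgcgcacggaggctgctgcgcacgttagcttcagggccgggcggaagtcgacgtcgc

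The windows of *Hspd1* and *Hspe1* share 285 bases read from opposite strands, and their RefSeq starts lie 216 bases apart. By these starts the same run of 4 units stands before both genes, with its first base 144 bases before the start of *Hspd1* and 89 bases before that of *Hspe1*. The count table places the 5′ ends of all 5 genes upstream of these RefSeq starts. By its coordinates the run lies before *Hspe1* but inside *Hspd1*, and the elements of *Chordc1*, *Hsph1* and *Dnajb6* lie inside their genes. *Chordc1* had the longest run, 5 units that reach across its RefSeq start, and was not called (0.03 ± 0.05, interval -0.08 to 0.15). *Hsph1* had 1 element just after its RefSeq start and rose by 0.62 on the log2 scale. *Dnajb6* had 1 element 46 bases before its RefSeq start. Of all 32851 RefSeq promoters of this length, 0.603% held an element and 15.1% held at least the pattern with 2 units. Among the 40 genes the 5 with an element comprised 3 called higher and 2 not called. The 14 with only the pattern with 2 units comprised 5 higher, 2 lower and 7 not called, and the 21 with neither comprised 10 higher, 0 lower and 11 not called. Over all genes 21.0% were higher and 20.8% lower, and nothing about the promoters is read from these counts. These matches describe the letters of the windows and nothing further. Among the stress-inducible genes listed below, *Hspa1a*, *Hspa1b*, *Hspa4l*, *Hspb1*, *Dnaja1*, *Dnajb1*, *Dnajb4*, *Bag3*, *Ahsa1*, *Stip1* and *Fkbp4* held no element in this window. The pattern is exact, so elements with other letters or outside the window were not counted. The promoters of *Hspa8*, *Hsp90aa1*, *Hsp90ab1*, *Hspa9*, *Cct4*, *St13* and *Hsf1* were not used here.

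**Figure D4:**
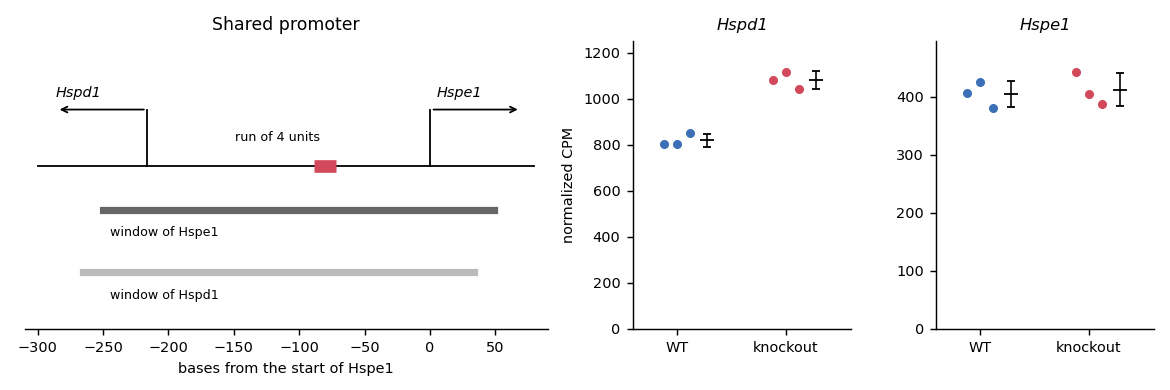
Left, map of the promoter shared by *Hspd1* and *Hspe1*, in bases from the start of *Hspe1* (x axis), with both starts as arrows, the run of 4 heat shock units in red and the 2 promoter windows as grey bars. Right, normalized CPM (y axes, from 0) of both genes in the WT (blue) and *Bdh2*-knockout (red) ASC replicates with mean and SD (n = 3), where *Hspd1* separates the genotypes and *Hspe1* does not.

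Of the remaining mitochondrial chaperones, *Trap1*, the HSP90 of mitochondria, rose from 247, 246 and 256 to 289, 284 and 301 normalized CPM (log2 fold change 0.22 ± 0.05, adjusted p = 0.0022). *Dnaja3*, a mitochondrial J-domain protein, rose from 81.9, 88.8 and 93.4 to 103, 103 and 103 (0.22 ± 0.06, adjusted p = 0.0064), but its call was lost without WT replicate 1 and knockout replicate 2 together (0.17). *Hspa9* (mortalin), the mitochondrial HSP70 that draws in imported proteins, measured 910.3, 975 and 979 in WT and 958, 922 and 938 in knockout ASCs and was not called (-0.02 ± 0.05, interval -0.12 to 0.08).

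*Hsf1* itself measured 44.9, 37.3 and 46.7 normalized CPM in WT and 49.6, 51.6 and 49.1 in knockout ASCs, just without overlap, and was called at 0.22 ± 0.07 (adjusted p = 0.026). This call was lost without WT replicate 2 (0.13), without knockout replicate 2 (0.20), without WT replicate 1 and knockout replicate 2 together (0.23) and with library totals (0.16). *Hsf2*, which can pair with heat shock factor 1 and is active in development, measured 44.2, 46.3 and 44.4 in WT and 44.6, 43.8 and 44.8 in knockout ASCs (-0.02 ± 0.05, interval -0.13 to 0.09). RNA of the factors does not show their activity, since heat shock factor 1 is controlled mainly after translation.

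A list of 17 of the 47 genes that heat shock factor 1 is known to raise under stress was read across families. It was compiled with earlier results of these data known. Of the 17, 9 were higher (*Hspa8*, *Hspa1b*, *Hsph1*, *Hspb1*, *Dnaja1*, *Hspd1*, *Bag3*, *Stip1* and *Ahsa1*), 1 was lower (*Dnajb4*) and 7 were not called (*Hsp90aa1*, *Hspa1a*, *Hspa4l*, *Dnajb1*, *Hspe1*, *Fkbp4* and *Chordc1*). Their median log2 fold change was 0.31, against 0.09 for the other 30, of which 12 were higher and 1 was lower. The shares called higher were 52.9% of the 17 and 40.0% of the 30, beside 21.0% of all genes, and those called lower were 5.88% and 3.33%, beside 20.8%. The difference between the lists was not tested, and nothing is read from it. *Hsph1* and *Hspb1* were among the largest increases, while *Dnajb1*, *Hspe1* and *Chordc1* had intervals within 0.25 of 0 in both directions.

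Called and uncalled genes were found among high and low levels. In WT ASCs 18 of the 47 genes exceeded 100 FPKM, led by *Hsp90ab1* (2227 FPKM in WT and 2507 in knockout ASCs), *Hsp90aa1* (1064 and 1051) and *Hspa8* (581 and 819). At the lower end *Hspa1a* (0.756 and 0.852), *Hspa4l* (0.573 and 0.680) and *Dnaja4* (0.430 and 0.407) were below 1 FPKM in both genotypes. Genes of the stress-inducible list stood at both ends, with *Hsp90aa1*, *Hspa8* and *Hspd1* among the highest and *Hspa1a*, *Hspa4l* and *Dnajb4* among the lowest. Replicates were close, with a median coefficient of variation of 5.35% over the 47 genes in WT and 2.75% in knockout ASCs. The widest was 23.4% for *Hspa1a* in WT ASCs. Of the 24 genes not called, 19 had a 95% interval within 0.25 of 0 on the log2 scale.

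**Figure D5:**
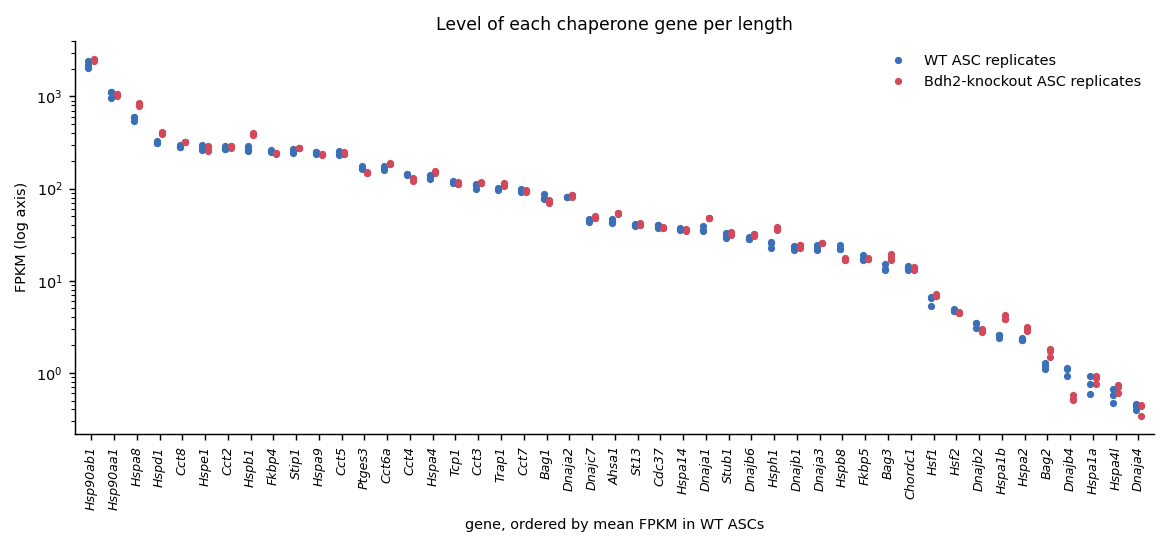
FPKM (y axis, log scale) of the 47 genes in each WT (blue) and *Bdh2*-knockout (red) ASC replicate, ordered by the WT mean. Levels run from 2227 FPKM (*Hsp90ab1*) to 0.430 FPKM (*Dnaja4*) in WT ASCs, and the genotypes part visibly at *Hspa8*, *Hspd1*, *Hspb1*, *Hsph1*, *Hspa1b* and *Dnajb4*.

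Other chaperone genes were taken from a list of 61, of which 57 could be tested. There 13 rose and 12 fell, and the median log2 fold change was 0.04. The shares called, 22.8% higher and 21.1% lower, were near the 21.0% and 20.8% over all genes. Of 10 further J-domain genes 3 rose and 0 fell, the largest increase being *Dnajc9*, a J-domain protein that also binds histones, from 60.9, 63.8 and 69.1 to 82.4, 81.0 and 77.3 normalized CPM (0.31 ± 0.06, adjusted p = 8.8e-04). Of 7 further cofactors and relatives of HSP70, 3 rose and 1 fell, and of 17 further HSP90 cochaperones 4 rose and 2 fell.

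The 2 largest decreases of the list were in small heat shock and mitochondrial genes. *Hspb6* (HSP20), a small heat shock protein of muscle, measured 7.88, 8.77 and 7.99 normalized CPM in WT and 3.88, 3.26 and 3.59 in knockout ASCs (-1.20 ± 0.13, adjusted p = 1.1e-05). It was 1 of 6 further small heat shock genes, of which 3 could be tested and 1 was called. *Hscb*, the J-domain protein that passes iron-sulfur clusters from their scaffold on to client proteins, measured 21.8, 24.9 and 23.1 in WT and 15.1, 13.4 and 14.6 in knockout ASCs, without overlap (-0.70 ± 0.08, adjusted p = 1.7e-05). Of 8 further mitochondrial chaperones and proteases, 1 rose and 2 fell. Among further heat shock factors and their binding protein, *Hsf4* was called at 1.75, 2.33 and 1.62 in WT and 2.61, 2.68 and 2.88 in knockout ASCs (0.52 ± 0.20, adjusted p = 0.049), and the call was lost in 11 of 15 alternatives, among them each left-out replicate except WT replicate 2.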

How the data were processed

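RNA-Seq was performed on ASCs of both genotypes, with 3 replicates each. After adaptors and reads of low quality (a limit of 20% poor bases) had been removed, the authors aligned reads to GRCm38 (HISAT2 2.0.5 per the submitters' processing notes), counted reads per gene with featureCounts, and deposited raw counts, which are whole numbers without normalization. The annotation release, the use of strand and the treatment of reads with several matches are not given in the sources used here.

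Differences between genotypes were fitted by edgeR 4.0.16 under R 4.3.3 (filterByExpr, TMM factors, glmQLFit and glmQLFTest, genotype as the single factor, Benjamini-Hochberg adjustment over 16758 genes, threshold 0.05), and the functions were tested on simulated data. Normalized CPM are counts scaled by the TMM library size, and FPKM were computed from the counts, the listed gene lengths and the library totals. Intervals are 95% intervals of the edgeR log2 fold change, made from its SE. Depth was 18927748 to 28333541 counts per library. Shared 50-base stretches and exon overlaps were computed from GENCODE M21 transcripts, and promoters are RefSeq windows. Python 3.11.15, pandas 2.3.3 and matplotlib 3.10.9 were used for tables and plots.

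The 47 genes, their families, the stress-inducible list, the other chaperone genes and the marker lists were chosen with earlier results of these data known. Every one of the 47 genes is named, and of the other chaperone genes the 3 largest increases and 3 largest decreases among those called, unless said otherwise. Alternatives were DESeq2 1.42.0 (the authors' tool), limma-voom (limma 3.58.1), median-of-ratios factors, library totals, a minimum mean count of 50, no filter on low counts, a block for replicate numbers, each sample left out in turn, WT replicate 1 and knockout replicate 2 left out together, a test against a fold change of 1.2 and, for FPKM, TPM and TMM library sizes. Protein sequences were not used here.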

Additional observations from a re-analysis of the deposited data

How the results depend on the processing

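Of the 23 called chaperone genes, 8 (*Hspa8*, *Hspa1b*, *Hsph1*, *Hspb1*, *Dnaja1*, *Dnajb4*, *Hspd1* and *Bag3*) kept their call in all 15 alternatives, and 15 lost it in at least 1, of which 8 lost it only in the test against a fold change of 1.2. That test asks for a larger change by its construction, and called 2457 genes (1185 higher, 1272 lower), with 7 of the 47 higher and 1 lower. With library totals 5 of the 47 were lower and the median of the 47 was 0.0639, and the median over all genes moved to -0.07. With a mean count of at least 50, where fewer genes were tested, 4 were lower. Without WT replicate 1 and knockout replicate 2 together, 2250 genes were called lower over all genes, with fewer samples in the fit. Leaving out each replicate in turn gave 5613 to 7409 called genes, 2928 to 3765 higher and 2624 to 3644 lower, with 19 to 25 of the 47 higher and 2 lower each time, and medians of 0.11 to 0.16. DESeq2 called 5673 genes, 22 of the 47 higher and 2 lower. No call of a chaperone gene reversed its direction in the 15 alternatives, although 10 uncalled genes changed sign in some, and 8 uncalled genes were called in at least 1. For FPKM, TMM library sizes in place of library totals moved 18 of 94 group means by more than 1 SD, and TPM, which has another scale, moved 94.

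Replicate numbers are shared by the genotypes, but deviations from the group means of same-numbered samples correlated at -0.154, 0.0995 and 0.245, and WT replicate 1 correlated best with knockout replicate 2 (0.312), so the samples share only a number. With the replicate block 6452 genes were called (3235 higher, 3217 lower), with 21 of the 47 higher, 2 lower and a median log2 fold change of 0.12, and 0 calls of the 47 lost or gained. Read sharing, strand and depth limit *Hspa1a*, *Dnaja4* and the genes with pseudogene copies. The cause of the changes with library totals was not tested.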

Other observations

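The table also lists 16 pseudogenes whose symbol is that of one of the 47 genes followed by -ps, a rule that leaves out *Hsp25-ps1* and copies with other names. Of the 16, 10 were counted 0 times in all 6 libraries and 2 could be tested. *Hspd1-ps3*, a processed pseudogene of *Hspd1*, measured 18.24, 10.95 and 14.64 normalized CPM in WT and 17.97, 22.66 and 17.94 in knockout ASCs, values that overlapped, with a log2 fold change of 0.42 ± 0.14 (SE) and an adjusted p of 0.031 by edgeR, beside 0.40 ± 0.05 for *Hspd1*. *Ptges3-ps*, a processed pseudogene of *Ptges3*, measured 70.1, 76.8 and 76.1 normalized CPM in WT and 65.5, 68.3 and 70.1 in knockout ASCs, also with overlap, and was not called (-0.13 ± 0.05, adjusted p = 0.073), beside -0.11 ± 0.05 for *Ptges3*. Counts on *Ptges3-ps* reached up to 21.2% of those on *Ptges3* in a library, against up to 2.27% for *Hspd1-ps3* and *Hspd1*. Reads that match a gene and its copy cannot be assigned with these counts, and whether copies are transcribed was not tested.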
